A study of Mus musculus with 8 samples.

Results

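The endoplasmic reticulum stress and folding genes described here are 38 genes that handle newly made protein in the endoplasmic reticulum (ER). They were taken by gene symbol: 16 folding factors, 7 genes of ER-associated degradation (ERAD), 5 stress sensors and transducers, 7 genes of the Atf4-Ddit3 arm and 3 parts of the translocon. Of these, 35 had an annotated probe on the array, with 51 of the 25697 probes in all. Signal reached the threshold for testing for 38 of those probes, which covered 28 of the 38 genes, and 9341 genes were tested in all.

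Total RNA of colon from C57BL/6 mice was labelled with Cy3 and measured on Illumina MouseRef-8 v2 bead arrays, with 2 arrays in each of 4 groups. The groups were tumors of caspase-12 deficient mice (C12-T), normal colon of caspase-12 deficient mice (C12-N), tumors of wild-type mice (WT-T) and normal colon of wild-type mice (WT-N). The series concerns the inflammatory caspases in gut homeostasis, colitis and colitis-associated cancer, and its design sets isolated tumors beside normal colon in both genotypes. The labels give neither age, nor the kind of caspase-12 mutation, nor the way the tumors arose. They also do not say that the arrays of a group came from separate animals, so a p-value reflects the spread between the 8 samples alone, and that spread may be technical.

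Secreted and membrane proteins enter the ER through the translocon, where chaperones, disulfide isomerases and lectins fold them. Proteins that fail to fold are recognised, moved back to the cytosol and degraded by ERAD. When unfolded protein builds up, the sensors Ern1 and Ern2 splice the messenger of the transcription factor Xbp1, Atf6 is cut into an active transcription factor, and Eif2ak3 phosphorylates the initiation factor eIF2, which favours translation of Atf4 and then expression of Ddit3. Xbp1 and Atf6 raise chaperone and ERAD genes, while Atf4 and Ddit3 also act on amino acid and redox genes. Ern2 is known from gut epithelium, whose goblet cells carry a heavy secretory load. Caspase-12 was long linked to cell death under ER stress in mice, which is the reason to set the chaperones, the ERAD genes and the Atf4-Ddit3 arm side by side. Splicing, cleavage and phosphorylation leave no direct trace in these intensities, so only messenger levels are described.

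A sequence that several of these promoters share is the ER stress response element (ERSE), which is CCAAT, then any 9 bases, then CCACG. Promoter windows of 300 bases, from 250 before to 50 after the start site (RefSeq, GRCm38.p6), were matched by symbol for 32 of the 38 genes and searched on both strands. The element was present in 9 of the 32 genes (28.1%), against 0.119% of 32817 windows of the same length. A gene counted if any of its windows matched, while the second share counts windows and includes those of these genes. The genes were listed as ER stress and folding genes, so the contrast is descriptive and tests nothing. The shorter form ERSE-II, which is ATTGG, any 1 base and CCACG, was present in Dnajb11 and Herpud1, and in 0.0366% of all windows. Hspa5, Hsp90b1, Dnajc3, Pdia6, Calr, Creld2, Syvn1 and Herpud1 held a match and were also tested on the arrays; their matches are printed 5′ to 3′ along the strand of the motif, with the fixed letters in capitals.
Hspa5 (chr2:34772025-34772043): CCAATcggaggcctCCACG
Dnajc3 (chr14:118937827-118937845): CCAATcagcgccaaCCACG
Pdia6 (chr12:17266491-17266509): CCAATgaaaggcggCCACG
Calr (chr8:84847075-84847093): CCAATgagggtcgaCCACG
Creld2 (chr15:88819520-88819538): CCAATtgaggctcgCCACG
Syvn1 (chr19:6046532-6046550): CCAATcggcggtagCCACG
Herpud1 (chr8:94386377-94386387): ATTGGgCCACG
Hsp90b1 (chr10:86705638-86705656): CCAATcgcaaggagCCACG
Hsp90b1 (chr10:86705533-86705551): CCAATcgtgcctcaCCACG
Canx, Derl3 and Dnajb11 also held a match and had no tested probe. The letters TGACGTGG, the core of the unfolded protein response element, were present in 0 of the 32 genes and in 0.676% of windows. The letters TGATGNAAT, a form of the CCAAT-enhancer and Atf4 composite element, were likewise present in 0 of the 32 genes and in 0.966% of windows. A match describes letters in a window and is not evidence of binding.

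The windows of 4 genes are printed whole, because Pdia6, Dnajb9 and Edem1 were the genes of the folding and ERAD groups called lower in deficient tumors than in deficient normal colon, and Hspa5 is the textbook carrier of the element. Hspa5 lies at chr2:34771840-34772139 on the plus strand, Pdia6 at chr12:17266339-17266638 on the plus strand, Dnajb9 at chr12:44210019-44210318 on the minus strand and Edem1 at chr6:108828391-108828690 on the plus strand. Each runs 5′ to 3′ along the gene, and capitals mark the ERSE.
Hspa5: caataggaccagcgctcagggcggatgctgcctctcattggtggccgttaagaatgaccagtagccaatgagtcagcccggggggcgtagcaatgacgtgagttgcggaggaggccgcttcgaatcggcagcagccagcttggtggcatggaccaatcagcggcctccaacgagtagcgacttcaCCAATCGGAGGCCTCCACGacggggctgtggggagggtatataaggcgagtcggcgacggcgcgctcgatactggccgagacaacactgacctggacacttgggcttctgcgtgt
Pdia6: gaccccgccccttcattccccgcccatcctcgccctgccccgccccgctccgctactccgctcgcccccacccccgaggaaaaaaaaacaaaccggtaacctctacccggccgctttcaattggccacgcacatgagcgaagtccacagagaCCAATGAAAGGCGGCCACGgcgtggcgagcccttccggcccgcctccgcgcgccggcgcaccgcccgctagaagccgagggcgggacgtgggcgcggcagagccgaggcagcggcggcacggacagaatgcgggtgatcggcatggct
Dnajb9: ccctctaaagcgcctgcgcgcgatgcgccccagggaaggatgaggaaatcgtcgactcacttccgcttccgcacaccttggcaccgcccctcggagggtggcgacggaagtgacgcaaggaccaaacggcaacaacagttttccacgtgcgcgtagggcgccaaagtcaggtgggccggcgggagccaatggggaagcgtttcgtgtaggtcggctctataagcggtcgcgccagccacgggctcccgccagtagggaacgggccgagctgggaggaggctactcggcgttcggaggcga
Edem1: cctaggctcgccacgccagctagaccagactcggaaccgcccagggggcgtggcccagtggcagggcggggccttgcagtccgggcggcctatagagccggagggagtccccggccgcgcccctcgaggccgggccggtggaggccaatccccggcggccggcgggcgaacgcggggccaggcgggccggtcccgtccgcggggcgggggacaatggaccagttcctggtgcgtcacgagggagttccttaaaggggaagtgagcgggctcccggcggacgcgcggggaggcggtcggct
The Hspa5 and Pdia6 windows each held 1 ERSE, while those of Dnajb9 and Edem1 held none of the 4 elements searched. No match says only that these letters are not in this window.

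The mean intensity was between 1112.5 and 1181.52 on the 8 arrays. Between 43.72% and 49.11% of probes were above background (a detection p under 0.01). Replicates correlated at r between 0.938 and 0.976 over the 13327 probes tested. The Casp12 probe, ILMN_2989535, was above background on 1 of the 2 deficient tumor arrays, 1 of the 2 deficient normal arrays and on 0 of the 4 wild-type arrays. It checks no label, since no source used here places it relative to the mutation. Marker lists moved between the groups. In deficient tumors against deficient normal colon, 9.43% of all genes were called higher and 10.5% lower. Of 10 tested colonic epithelium genes, 5 fell and 1 rose in deficient tumors against deficient normal colon, and their summed normalised intensity was 93314 and 96533 in deficient tumors, 146555 and 141510 in C12-N, 152573 and 160505 in WT-T, and 166536 and 190888 in WT-N. Of 8 tested goblet cell genes, 3 fell in the same comparison, with summed intensities of 40509 and 90956 in deficient tumors, 160367 and 175339 in C12-N, 100276 and 153213 in WT-T, and 162907 and 205698 in WT-N. On both deficient tumor arrays 1 of the 10 epithelial genes and 0 of the 8 goblet cell genes were below background. All 7 tested neutrophil genes rose in deficient tumors, while Cxcr2, Ngp, Mmp8 and Camp had probes that did not reach the threshold for testing. The sum of the 7 tested genes was 113688 and 116307 in deficient tumors, 1057 and 1611 in C12-N, 39384 and 1681 in WT-T, and 9752 and 5823 in WT-N. Of 15 squamous epithelium genes, 10 rose. Of these 15, 12 were above background on neither C12-N array and 13 on neither WT-N array, so a gene could pass the filter through the tumors alone. The sum of the 15 genes was 71011 and 182667 in deficient tumors, 2234 and 2294 in C12-N, 83499 and 1534 in WT-T, and 2781 and 1738 in WT-N. Wild-type tumor replicate 1 thus carried squamous signal that replicate 2 lacked, and deficient tumor replicate 1 carried skeletal muscle signal (a sum of 127667, against 1374 in replicate 2). In whole tissue, fewer cells of a type and less RNA per cell cannot be told apart. The part of these cell types in the results below was not tested.

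Levels are normalised log2 intensities, differences are log2 differences of group means, and a change is called where the p-value of limma, a linear model fitted to every probe, adjusted over all 13327 probes tested, is under 0.05. In caspase-12 deficient mice the group did not move as one in tumors: Dnajb9, Pdia6 and Edem1 fell, Ppp1r15a rose, and 24 of the 28 tested genes did not pass the test. Among all 9341 genes, 10.5% were called lower and 9.43% higher in the same comparison, so 3 of 28 lower is near that background and 1 of 28 higher is below it. The median difference of the 28 genes was −0.05, against 0.00 over all genes. The differences of 16 of the 28 genes were under 0.5 in size, against 51.2% of all genes, and those of 3 exceeded 1, against 23.63% of all genes.

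**Figure D1:**
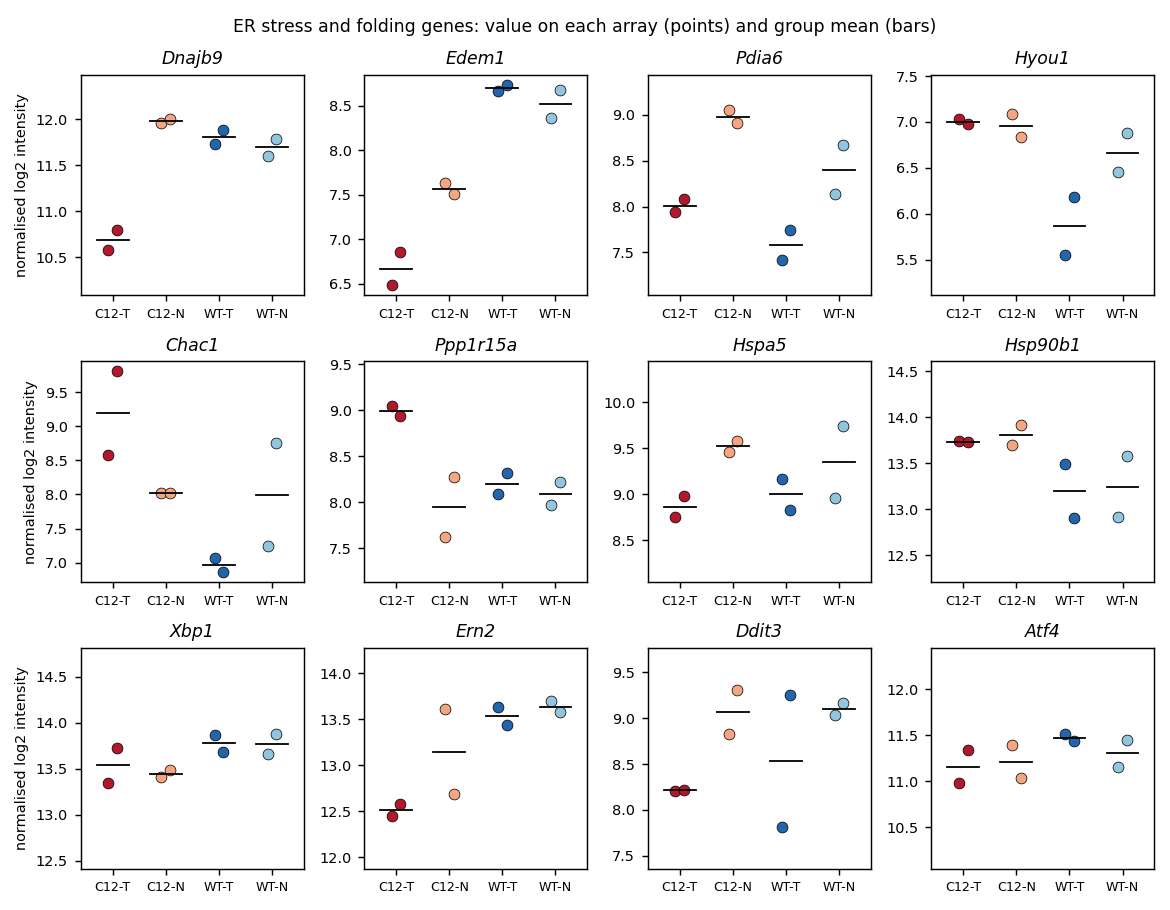
Normalised log2 intensity (vertical axis, its own range in each panel) of 12 genes on each array, with groups along the horizontal axis (C12-T and C12-N, tumors and normal colon of caspase-12 deficient mice; WT-T and WT-N, the same of wild-type mice). Points are arrays, bars are group means; the points of Dnajb9 and Edem1 in deficient tumors lie below those of every other group, and those of Ppp1r15a lie above them.

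Dnajb9, a J-domain partner that hands unfolded substrate to the chaperone Hspa5, had the largest fall among the folding factors. Its level (probe ILMN_2829636) was 10.58 and 10.80 in deficient tumors, against 11.956 and 12.001 in deficient normal colon, while it was 11.73 and 11.88 in wild-type tumors, against 11.60 and 11.79 in wild-type normal colon. Both deficient tumor arrays lay below all 6 other arrays. In deficient mice it fell by 1.29 (SE 0.213, n = 2 arrays each, limma adjusted p = 0.00733), 2.45-fold lower in tumors. The difference in wild-type mice was 0.11 (adjusted p = 0.874). The genotype by tissue interaction, the tumor difference in deficient mice minus that in wild-type mice, was −1.40 (SE 0.301, limma adjusted p = 0.0491). In the interaction 2.29% of all genes were called lower and 1.73% higher, and 1 of 28 lower is near that share. Dnajb9 was the only one of the 28 genes called in the interaction. That call was lost when any one of 7 of the 8 arrays was left out (adjusted p between 0.0747 and 0.173), and with array weights (0.0542), median scaling (0.0759) or cyclic loess (0.0643). The fall in deficient mice was lost only without deficient normal replicate 2 (−1.27, adjusted p = 0.0507).

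Pdia6, a protein disulfide isomerase, read 7.94 and 8.08 in deficient tumors, against 9.05 and 8.91 in deficient normal colon (probe ILMN_2489360). It read 7.42 and 7.75 in wild-type tumors, against 8.14 and 8.67 in wild-type normal colon. In each genotype both tumor arrays lay below both normal arrays. It fell by 0.97 in deficient mice (SE 0.257, limma adjusted p = 0.0377), 1.96-fold lower. In wild-type mice the difference was −0.82 (SE 0.257, adjusted p = 0.508) and did not pass, and the interaction was −0.15 (adjusted p = 0.860). The call in deficient mice was lost when any one of the 4 deficient arrays was left out (adjusted p between 0.0746 and 0.148). It was also lost with array weights (0.0513), with cyclic loess (0.0505), when only the arrays compared were fitted (0.0513) and with the deposited log2 values, where the difference was −0.52 (adjusted p = 0.118).

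Pdia5, another disulfide isomerase, was represented by 3 tested probes that all read lower in deficient tumors. Its brightest probe (ILMN_1255177) read 9.56 and 9.92 in deficient tumors, against 11.17 and 10.30 in deficient normal colon, a difference of −0.995 (SE 0.321, limma adjusted p = 0.0682) that did not pass. The probe ILMN_2877787 read 6.64 and 6.69 in deficient tumors, against 8.03 and 7.86 in deficient normal colon, and fell by 1.28 (SE 0.204, adjusted p = 0.00651). The same probe read 6.99 and 7.13 in wild-type tumors, against 7.88 and 7.86 in wild-type normal colon, a difference of −0.81 (adjusted p = 0.386). The probes of Pdia5 thus differ in the call and not in the direction. Pdia5 is not counted among the called genes, since the brightest probe stands for the gene. It was called lower with median scaling, with the mean of its tested probes and without deficient normal replicate 2, where it was the only member called lower.

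Hspa5 (BiP), the central chaperone and a binding partner of all 3 classes of sensor, did not pass. It read 8.75 and 8.98 in deficient tumors, against 9.46 and 9.58 in deficient normal colon. The arrays did not overlap, and the difference was −0.65 with a 95% confidence interval from −1.36 to 0.05 (limma adjusted p = 0.171). In wild-type mice Hspa5 read 9.16 and 8.83 in tumors, against 8.96 and 9.74 in normal colon, a difference of −0.35 (adjusted p = 0.687) with overlapping arrays. Hsp90b1, the ER form of the Hsp90 chaperones, read 13.74 and 13.73 in deficient tumors, against 13.70 and 13.92 in deficient normal colon. Its difference was −0.07, with an interval from −0.79 to 0.64 (adjusted p = 0.892). In wild-type mice Hsp90b1 read 13.49 and 12.90 in tumors, against 12.91 and 13.58 in normal colon, and the arrays overlapped.

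The other 8 tested folding factors, apart from those 4, were the disulfide isomerases Pdia3, Pdia4, Pdia5 and P4hb, the lectin Calr, the Hspa5 partners Dnajc3 and Hyou1, and Creld2, a stress-induced secreted protein. None of them was called in deficient mice. Over all 12 tested folding factors the differences ran between −1.29 (Dnajb9) and 0.37 (Pdia3), with a median of −0.14, and 4 were positive and 8 negative. The 8 genes with an ERSE or ERSE-II match had a median of −0.14 with 1 called lower (Pdia6), and the 17 genes with a window but no match had a median of 0.00 with 2 called lower and 1 higher.

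Among the 5 tested ERAD genes only Edem1, which marks misfolded glycoproteins for disposal, was called in deficient mice. It read 6.49 and 6.85 in deficient tumors, against 7.63 and 7.51 in deficient normal colon, and 8.66 and 8.74 in wild-type tumors, against 8.36 and 8.67 in wild-type normal colon (probe ILMN_1244297). The deficient tumors were lowest, the deficient normal arrays next, and the 4 wild-type arrays highest. Edem1 fell by 0.90 in deficient mice (SE 0.234, limma adjusted p = 0.0353), 1.86-fold lower, and differed by 0.18 in wild-type mice (adjusted p = 0.792). The interaction was −1.08 (SE 0.331, adjusted p = 0.119) and did not pass. Leaving out any one of 5 arrays (deficient tumor replicate 1 and all 4 normal arrays) ended the fall's call, with adjusted p between 0.0589 and 0.162. The call also ended with the deposited log2 values, where the difference was −0.36 (adjusted p = 0.242), and without background correction, where it was −0.49 (adjusted p = 0.0785). Cyclic loess (adjusted p = 0.0512) and fitting only the arrays compared (0.0745) ended it too.

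The other 4 tested ERAD genes were Sel1l and the ubiquitin ligase Syvn1, which form the core of the retrotranslocation complex, Herpud1, which binds that complex, and Derl2, a membrane protein of the exit channel. Their differences in deficient mice were 0.53 for Sel1l, −0.04 for Syvn1, 0.47 for Herpud1 and −0.68 for Derl2, and none passed. A second Sel1l probe, ILMN_3137920, read the other way at −0.38 (limma adjusted p = 0.370), so the direction for Sel1l depends on the probe. Syvn1 read 12.96 and 11.71 in deficient normal colon, one of the widest gaps between replicates in the group. Derl3, Derl1 and a second Edem1 probe were above background on 0 of the 8 arrays. Derl3, which in mice is known from secretory cells, read between 4.96 and 5.32 on 7 arrays and 6.49 on wild-type normal replicate 2.

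None of the 3 tested sensors and transducers was called in deficient mice. Ern2, the Ern1 relative of gut epithelium, read 12.45 and 12.58 in deficient tumors, against 13.61 and 12.69 in deficient normal colon, a difference of −0.63 (limma adjusted p = 0.200). It read 13.63 and 13.44 in wild-type tumors, against 13.70 and 13.58 in wild-type normal colon. Both deficient tumor arrays were lowest, and deficient normal replicate 2 lay close to them. Xbp1 read 13.34 and 13.73 in deficient tumors, against 13.41 and 13.49 in deficient normal colon. Its difference was 0.09 with an interval from −0.45 to 0.63, and the arrays overlapped. The Xbp1 level does not tell the spliced from the unspliced messenger here. Eif2ak3 (Perk) read 10.21 and 10.26 in deficient tumors, against 10.13 and 10.04 in deficient normal colon, and 10.44 and 9.96 in wild-type tumors, against 10.13 and 10.33 in wild-type normal colon. Ern1 was above background on 0 of the 8 arrays and has no measured difference, and Atf6 had no annotated probe.

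In the Atf4-Ddit3 arm, the members did not move one way. Ppp1r15a (Gadd34), which brings a phosphatase to eIF2 and so restores translation, read 9.05 and 8.94 in deficient tumors, against 7.62 and 8.27 in deficient normal colon. It read 8.09 and 8.31 in wild-type tumors, against 7.96 and 8.22 in wild-type normal colon. Both deficient tumor arrays lay above all 6 others. It rose by 1.05 in deficient mice (SE 0.273, limma adjusted p = 0.0353), 2.07-fold higher, against a difference of 0.11 in wild-type mice (adjusted p = 0.903), and the interaction was 0.94 (SE 0.387, adjusted p = 0.223). The call ended without deficient tumor replicate 1 or 2, deficient normal replicate 1, or wild-type normal replicate 1 or 2, with differences between 0.72 and 1.10 and adjusted p between 0.0610 and 0.155, and when only the arrays compared were fitted (0.0804). Ppp1r15a is also induced with immediate early genes, and of 12 tested genes of that kind 3 rose in the same comparison, against 9.43% of all genes: Ier3 by 2.86, Junb by 1.13 and Dusp1 by 1.02. Their part in the result was not tested.

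Atf4 itself, the transcription factor of the arm, read 10.98 and 11.33 in deficient tumors, against 11.39 and 11.03 in deficient normal colon. The arrays overlapped, and the difference was −0.05 with an interval from −0.63 to 0.52 (limma adjusted p = 0.899). Ddit3 (Chop), a transcription factor linked to cell death in prolonged stress, read 8.21 and 8.22 in deficient tumors, against 8.83 and 9.30 in deficient normal colon (probe ILMN_2652909). Its difference was −0.86 with an interval from −1.87 to 0.16 (adjusted p = 0.210). In wild-type tumors Ddit3 read 7.82 on replicate 1 and 9.25 on replicate 2, against 9.03 and 9.16 in wild-type normal colon. A second Ddit3 probe gave −0.97 in deficient mice (adjusted p = 0.123). The Ddit3 difference was called in deficient mice only when wild-type tumor replicate 1 or 2 was left out of the shared estimate of spread (adjusted p = 0.0483 each). Atf3, a stress-induced transcription factor, differed by −0.55 and Asns, the asparagine synthetase under Atf4, by 0.30, and neither passed.

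**Figure D2:**
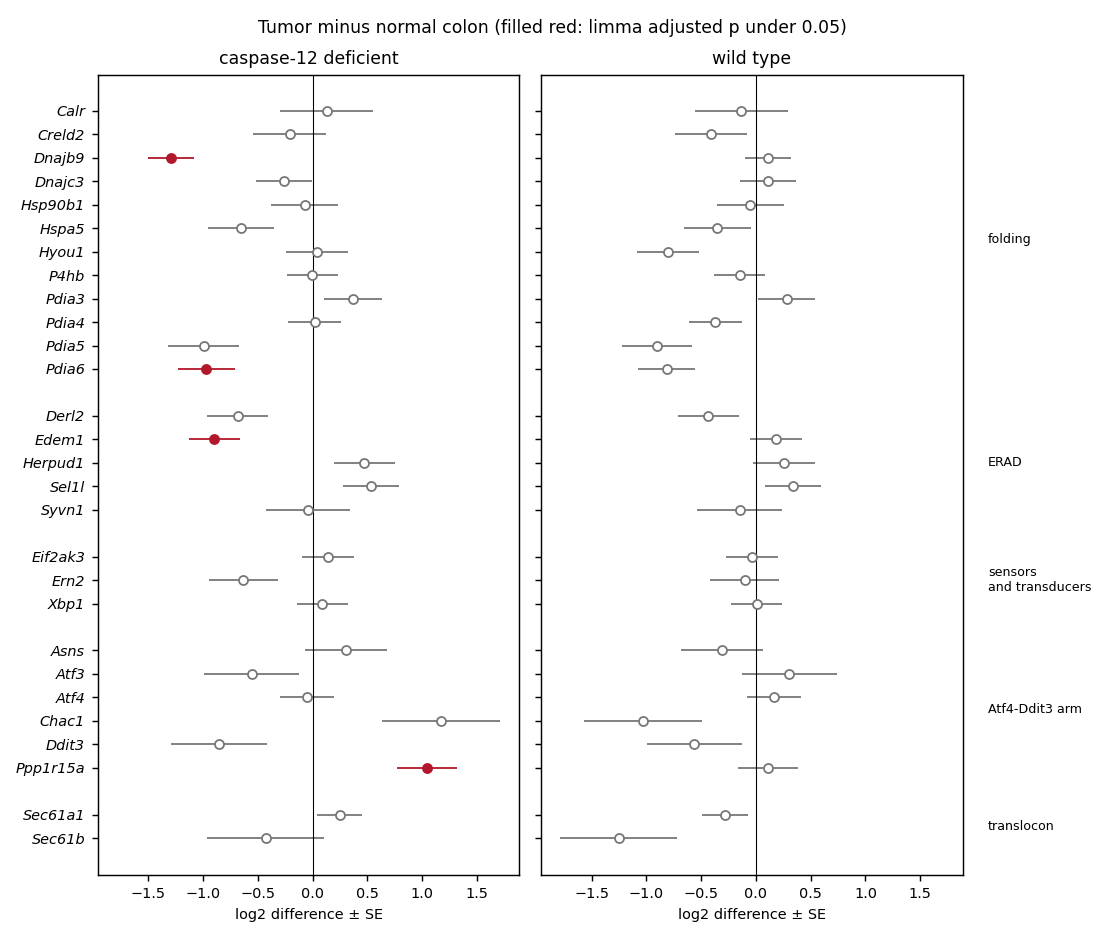
Log2 difference of tumors minus normal colon with its standard error (horizontal axis) for each of the 28 tested genes, in deficient mice on the left and wild-type mice on the right, by role. Filled red points passed the limma test: Dnajb9, Pdia6, Edem1 and Ppp1r15a in deficient mice and no gene in wild-type mice.

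In wild-type mice 0 of the 28 genes were called between tumors and normal colon in either direction, and 0% of all genes were called, so the comparison has no called background to read against. At an unadjusted p under 0.05 there were 4 of the 28, against 8.77% of all genes. The differences of 22 of the 28 were under 0.5 in size, against 73.79% of all genes, and their median was −0.14, against 0.00 over all genes. The lowest was in Sec61b, a subunit of the translocon, at −1.25. It read 10.00 and 11.84 in wild-type tumors, against 12.18 and 12.17 in wild-type normal colon, so replicate 1 lay below the other 3 arrays and replicate 2 close to the normal ones. With replicate 2 left out Sec61b was called lower, and 105 of all probes were called in place of 0. Chac1 (−1.03), Pdia5 (−0.90) and Pdia6 (−0.82) were also low, all with limma adjusted p over 0.5. Hyou1 was not above background on either wild-type tumor array, and was above it on 1 wild-type normal array. Its difference of normalised means was −0.80 and did not pass (limma adjusted p = 0.547), so no fold is given. The deficient and wild-type tumor comparisons share no arrays.

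Between genotypes, tumors differed in 4 of the 28 genes: Edem1 and Dnajb9 were lower and Chac1 and Hyou1 higher in deficient tumors than in wild-type tumors. Among all genes 9.09% were called lower and 8.54% higher in this comparison, so the share of members called in each direction is near the background. This comparison uses the same deficient tumor arrays as the comparison with deficient normal colon, so the calls of Edem1 and Dnajb9 in both are not independent. The median difference of the 28 genes was 0.04, against 0.02 over all genes. The differences of 17 genes were under 0.5 in size, against 52.05% of all genes, and those of 5 exceeded 1, against 21.61%.

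Edem1 had the largest difference of the group at the lower end. From the array values given above it was lower by 2.03 in deficient tumors (SE 0.234, limma adjusted p = 0.00409), 4.08-fold lower than in wild-type tumors. The call held under all 19 settings tried, with differences between −2.21 and −1.26. In normal colon, deficient arrays also read lower than wild-type arrays, by 0.95 on the log2 scale, 1.93-fold, but that difference did not pass (SE 0.234, adjusted p = 0.0929). It passed when arrays were weighted (adjusted p = 0.0483). Dnajb9 was lower by 1.12 in deficient tumors than in wild-type tumors (SE 0.213, limma adjusted p = 0.0147), 2.17-fold, and its difference in normal colon was 0.28 (adjusted p = 0.548). That Dnajb9 call ended without deficient tumor replicate 1 (adjusted p = 0.0682), without wild-type tumor replicate 2 (0.0522) and when only the arrays compared were fitted (0.0696).

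Chac1, an enzyme that degrades glutathione and lies downstream of Atf4 and Ddit3, read 8.58 and 9.80 in deficient tumors, against 7.06 and 6.86 in wild-type tumors. It read 8.02 and 8.01 in deficient normal colon, against 7.24 and 8.75 in wild-type normal colon. The deficient tumor arrays lay above the wild-type tumor arrays, while the replicates of deficient tumors and of wild-type normal colon were each more than 1 unit apart. Chac1 was higher by 2.23 in deficient tumors than in wild-type tumors (SE 0.539, limma adjusted p = 0.0298), 4.68-fold. Against deficient normal colon its difference was 1.17 (SE 0.539, adjusted p = 0.170), and the interaction was 2.20 (adjusted p = 0.156). Leaving out any one of 5 arrays (deficient tumor replicate 2, both deficient normal and both wild-type tumor arrays) ended the call, with adjusted p between 0.0577 and 0.112. So did array weights (0.0845), no filter (0.0714) and fitting only the arrays compared (0.0556). The difference was 1.62 without deficient tumor replicate 2 and 2.84 without deficient tumor replicate 1.

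Hyou1, an ER chaperone that also exchanges nucleotide on Hspa5, read 7.03 and 6.98 in deficient tumors, against 5.55 and 6.18 in wild-type tumors. It read 7.08 and 6.84 in deficient normal colon, against 6.45 and 6.88 in wild-type normal colon. Its probe was above background on 2 deficient tumor arrays, 1 deficient normal array, 0 wild-type tumor arrays and 1 wild-type normal array, so the fold of deficient over wild-type tumors is given only as at least 1.37-fold (log2 difference of the normalised means 1.14, limma adjusted p = 0.0321). Hyou1 was the only tested gene of the 28 not above background on all 8 arrays. It passed the filter without the wild-type tumors, where it was lowest, and deficient tumors and deficient normal colon differed by 0.04. Leaving out any one of 5 arrays (both deficient tumor, both deficient normal and wild-type tumor replicate 1) ended the call, with adjusted p between 0.0536 and 0.110. So did array weights (0.0637), fitting only the arrays compared (0.0936), no background correction (difference 0.52, adjusted p = 0.0761) and the deposited log2 values (0.62, adjusted p = 0.0594).

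**Figure D3:**
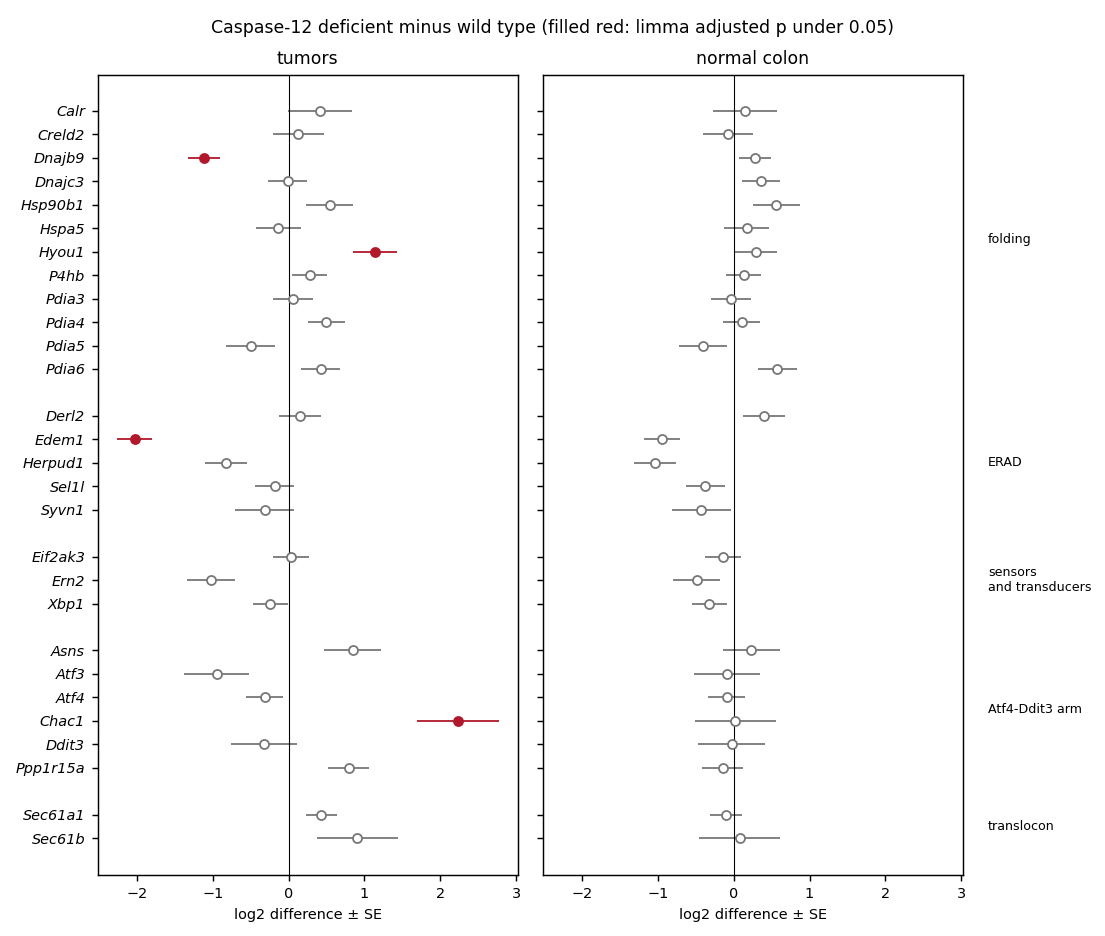
Log2 difference of caspase-12 deficient minus wild type with its standard error (horizontal axis) for each of the 28 tested genes, in tumors on the left and normal colon on the right, by role. Filled red points passed the limma test: Edem1, Dnajb9, Chac1 and Hyou1 in tumors and no gene in normal colon.

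Other genes of the group had differences between the tumors of the 2 genotypes that did not pass. Herpud1 read 13.28 and 13.80 in deficient tumors, against 14.59 and 14.13 in wild-type tumors. It read 13.09 and 13.04 in deficient normal colon, against 13.92 and 14.28 in wild-type normal colon. All 4 deficient arrays lay below all 4 wild-type arrays. The difference was −0.82 in tumors (limma adjusted p = 0.0820) and −1.04 in normal colon (adjusted p = 0.116). A second Herpud1 probe, ILMN_2790246, read 12.76 and 13.23 in deficient tumors, against 14.19 and 13.86 in wild-type tumors, and was lower by 1.03 with adjusted p = 0.0301. The 2 probes of Herpud1 thus differ in the call and not in the direction. Ern2 was lower by 1.02 in deficient tumors (adjusted p = 0.0613). It passed with median scaling, without background correction, with probes detected on all arrays and without either deficient normal array, with adjusted p between 0.0327 and 0.0481. Ppp1r15a differed by 0.79 (adjusted p = 0.0853), and passed with the deposited log2 values (0.72, adjusted p = 0.0452).

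Hspa5, Hsp90b1, Xbp1 and Eif2ak3 did not pass between the tumors. Their differences were −0.13 for Hspa5 (limma adjusted p = 0.788, interval from −0.84 to 0.57), 0.54 for Hsp90b1 (adjusted p = 0.254), −0.24 for Xbp1 (adjusted p = 0.50) and 0.03 for Eif2ak3 (adjusted p = 0.936). Hspa5 thus had no called change in any of the comparisons, while its partner Dnajb9 was called in 3. Those 3 calls all use the same deficient tumor arrays and are not independent, and Hspa5 was not tested against Dnajb9. In the Atf4-Ddit3 arm Asns differed by 0.84 and Atf3 by −0.95, in opposite directions and without passing, beside Chac1 at 2.23, Ddit3 at −0.32 and Atf4 at −0.31. Of the 3 tested Asns probes, ILMN_2636755 read the other way at −0.32 (adjusted p = 0.680).

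In normal colon 0 of the 28 genes were called between genotypes, against 1.16% of all genes called higher and 1.15% called lower. At an unadjusted p under 0.05 there were 2 of the 28, Edem1 and Herpud1, a share below the 17.5% of all genes. The differences of 24 of the 28 genes were under 0.5 in size, against 68.65% of all genes, and the median was −0.03, against 0.04 over all genes. Folding factors ran between −0.40 (Pdia5) and 0.58 (Pdia6), and the 4 ERAD genes other than Derl2 (0.40) were all negative.

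By role, the medians in deficient tumors against deficient normal colon were −0.14 for folding, −0.04 for ERAD, 0.09 for sensors and transducers, 0.12 for the Atf4-Ddit3 arm and −0.09 for the translocon. With median scaling, which moved the median of all genes to −0.10, all 5 were negative (−0.39, −0.29, −0.31, −0.10 and −0.31 in the same order), so the sign for the sensors and the Atf4-Ddit3 arm depends on the scaling. Between deficient and wild-type tumors they were 0.20 for folding, −0.32 for ERAD, −0.24 for sensors and transducers, 0.24 for the Atf4-Ddit3 arm and 0.67 for the translocon. The role groups hold between 2 and 12 tested genes, and leaving out 1 array moved some of these medians across 0. In deficient tumors against deficient normal colon the Atf4-Ddit3 arm ran between −0.13 (without deficient tumor replicate 2) and 0.41 (without deficient tumor replicate 1), and the ERAD median between −0.38 (without deficient normal replicate 2) and 0.50 (without deficient normal replicate 1). The translocon median of 0.67 rests on 2 genes and on wild-type tumor replicate 1 (0.20 without it).

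**Figure D4:**
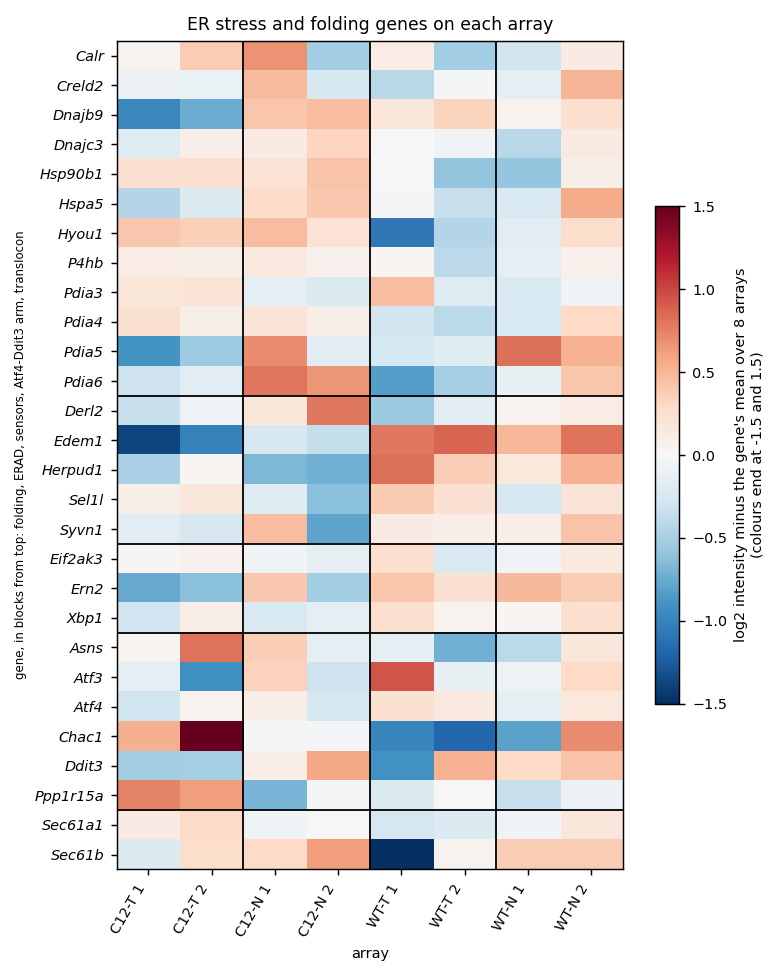
Log2 intensity minus the gene's mean over 8 arrays (colour, ending at −1.5 and 1.5) for the 28 tested genes in rows, in blocks by role, and the 8 arrays in columns. Dnajb9 and Edem1 are blue on both deficient tumor arrays, Ppp1r15a and Chac1 are red there, and most rows of the folding block are pale.

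Replicates of wild-type normal colon differed in level over the group. Replicate 2 read higher than replicate 1 in 25 of the 28 genes, by a median of 0.32, while 47.3% of all genes were higher and the median over all genes was −0.02. The same count was 20 of 28 in deficient tumors (median 0.15), 10 of 28 in deficient normal colon (median −0.08) and 11 of 28 in wild-type tumors (median −0.10). Wild-type normal colon enters the tumor comparison in wild-type mice, the genotype comparison in normal colon and the interaction. Only 1 gene there, Chac1, was more than 1 unit apart, as it was in deficient tumors. Calr and Syvn1 were more than 1 unit apart in deficient normal colon, and Sec61b, Ddit3 and Atf3 in wild-type tumors.

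Further genes of the same pathways are given beside the group, from lists chosen with earlier results of these data known. Their calls were not checked under the alternative settings used for the members. Of 22 tested further Atf4 targets, 5 rose and 1 fell in deficient tumors against deficient normal colon, where 9.43% of all genes were called higher and 10.5% lower. Slc7a11, a cystine transporter, rose at least 12.8-fold (difference of normalised means 4.18, SE 0.74, limma adjusted p = 0.00934). Slc7a5, a large neutral amino acid transporter, rose by 2.47 (adjusted p = 0.00204) and Psat1, of serine synthesis, rose by 2.06 (adjusted p = 0.0241). Ddit4 rose by 1.80 and Cebpb by 1.45. Cth, which makes cysteine by transsulfuration, fell by 4.70 (adjusted p = 0.00104). The median of the 22 was 0.34, against 0.00 over all genes. Sesn2, Psph, Pck2, Cars, Fgf21 and Slc7a1 had probes that did not reach the threshold for testing. Between deficient and wild-type tumors, where the same deficient tumor arrays enter and 8.54% of all genes were called higher and 9.09% lower, Slc7a11, Psat1, Slc7a5, Shmt2 and Cebpb were higher and Cth lower. No gene of this list was called between tumors and normal colon in wild-type mice, where 0% of all genes were called.

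Of 19 tested further folding, oxidation and glycan processing genes, 1 was called in deficient mice: Agr2, a disulfide isomerase abundant in goblet cells, fell by 2.66 (limma adjusted p = 0.0153). It moved beside the goblet cell genes Clca1 (−2.48) and Spdef (−2.13), and its own part apart from goblet cells was not tested. Of 14 further ERAD genes 0 were called in deficient mice, and 1, the ubiquitin-conjugating enzyme Ube2j2, was lower in deficient than in wild-type tumors (−0.86). Of 25 further translocon, signal peptidase and oligosaccharyltransferase genes, 1 fell in deficient mice, the oligosaccharyltransferase subunit Stt3a (−0.90). Between the tumors Dad1, another subunit of that enzyme, was higher (1.27) and Srp54a, of the signal recognition particle, lower (−1.12). These counts are at or below the shares of all genes called.

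Of 16 further sensors and eIF2 kinases, 3 fell and 1 rose in deficient tumors against deficient normal colon, against 10.5% of all genes called lower and 9.43% higher. Creb3l3, a membrane-bound transcription factor related to Atf6, was lower at least 2.85-fold (limma adjusted p = 0.00165), and Creb3l4, another of that family, fell by 1.73 (adjusted p = 0.00461). Ppp1r15b, the constitutive counterpart of Ppp1r15a, fell by 1.31 (adjusted p = 0.00731), and Bcl2l11 (Bim), a pro-apoptotic gene, rose by 1.71 (adjusted p = 0.0437). Ppp1r15a and Ppp1r15b thus had differences of opposite sign in the same samples. Of 11 tested cytosolic heat shock genes 1 fell, Hsp90aa1, by 1.57 (adjusted p = 0.00823). Between genotypes, Hsp90aa1 in normal colon differed by 1.57, deficient minus wild type (limma adjusted p = 0.0322). In that comparison 1.16% of all genes were called higher. Both Hsp90aa1 calls use the same deficient normal arrays, which read above deficient tumors and above wild-type normal colon, so the calls are not independent. Of 7 tested plasma cell genes, another secretory cell type, 0 were called in any of the 5 comparisons, with sums of 6369 and 8581 in deficient tumors, 8016 and 7710 in C12-N, 7378 and 8977 in WT-T, and 8315 and 12163 in WT-N. In C12-N 4 of the 7 were above background on neither array. Their median was −1.24 in deficient against wild-type normal colon and 0.77 in deficient tumors against deficient normal colon, so a stable plasma cell content is not shown. Of 5 tested exocrine pancreas genes, of another secretory type, Pnliprp1 and Rnase1 rose in deficient tumors against deficient normal colon. The rises were at least 59.6-fold and at least 17.2-fold, and both genes were above background on neither C12-N array. Cel, Cpa1, Cela3b, Cela2a, Prss2, Ctrb1 and Cpb1 had probes that did not reach the threshold for testing. Between deficient and wild-type tumors Rnase1 was higher and Sycn and Cela1 lower, and Rnase1 was called in the interaction. The summed intensities of the list were 24628 and 13277 in deficient tumors, 5293 and 7600 in C12-N, 36684 and 63970 in WT-T, and 46153 and 28930 in WT-N, and their part in the results was not tested.

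The genes with no measured difference complete the list. Ern1, Trib3, Canx, Manf, Derl1, Derl3 and Ssr1 had probes that were above background on 0 of the 8 arrays. A probe below background does not show that its gene was silent. Atf6, Dnajb11 and Sdf2l1 had no annotated probe. The sensors were therefore read through 3 of 5 genes, and the Atf4-Ddit3 arm through 6 of 7.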

How the data were processed

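Total RNA of 8 colon samples was measured on 1-colour bead arrays. The authors deposited, per the file headers, a non-normalized intensity and a detection p-value per probe and array, and a second table of deposited log2 values. The submitters' processing notes name BeadStudio 3.2.7. Subtracting each array's log2 mean from its log2 intensities gave the deposited log2 values (largest gap 1.71e-05), which served as an alternative. Intensities were corrected and quantile normalized with neqc (offset 16) in limma 3.58.1 under R 4.3.3. Probes with detection p under 0.01 on at least 2 of 8 arrays were tested (13327 probes). Gene symbols were current RefSeq symbols, matched by the gene identifier in the platform annotation, or the annotation's own symbol where none matched. With these, 23978 probes had 1 symbol and 1719 had none. Of the members' probes, 0 were filed under an older symbol. The tested probe with the highest mean stood for its gene.

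Every difference came from 1 limma model with a mean per group (4 residual and 3.547 prior degrees of freedom), two-sided, with Benjamini-Hochberg adjustment over all probes tested and a threshold of 0.05. The procedure was tested on simulated data, with differences larger than most of those called among the members, so that test does not cover their size. Below-background groups give only bounds ("at least"), made from the lowest intensity called above background. Such a bound is a ratio of group means without sampling error, so it is not a lower confidence limit. Precision is limited by the number of arrays. The members, roles and further lists, and the rule for naming genes (every member called in any comparison, the central chaperones, sensors and Atf4-Ddit3 factors, and further pathway genes past the threshold), were chosen with earlier results of these data known. Genes named only for a lost or gained call, a gap between replicates or a low value were chosen after their values were seen. Alternatives covered weights, background, scaling, filters, the arrays fitted, a replicate block and leaving out each array. The sources used here do not name slides.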

Additional observations from a re-analysis of the deposited data

Results flagged for a closer look

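Tumor differences of 4 genes differed between deficient and wild-type mice by the interaction term in limma, in which 1.73% of all genes were called higher and 2.29% lower. Among the 28 ER stress and folding genes this was Dnajb9, with an interaction of −1.40 log2 units (adjusted p = 0.0491), a call lost without any one of 7 of the 8 arrays. Among the further pathway genes it was Cth, with −4.30 (adjusted p = 0.0173), Slc7a5, with 2.45 (adjusted p = 0.0249), and Creb3l3, with −2.92 (adjusted p = 0.0118). Cth and Slc7a5 were among 22 tested further Atf4 targets, and Creb3l3 was among 16 tested further sensors and eIF2 kinases. The remaining further pathway lists, with 19, 14 and 25 tested genes, held 0 calls. Each list thus had at most 1 gene called in each direction, a count near the shares of all genes. Creb3l3 was below background on both deficient tumor arrays, so its value is a difference of normalised means and not a measured size.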

How the results depend on the processing

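Counts of called members are small, so 1 gene moves them. In deficient tumors against deficient normal colon, 3 were lower. This became 1 with cyclic loess, 1 with the deposited values and 1 when only the arrays compared were fitted (Dnajb9 each time), and lay between 1 and 4 with 1 array left out. The 1 higher became 0 when only those arrays were fitted, and lay between 0 and 1 with 1 array left out. Between deficient and wild-type tumors, 2 were higher. This became 0 with array weights, 1 without background correction, 1 without a filter, 1 with probes detected on all 8 arrays and 0 with only those arrays, and lay between 0 and 2 with 1 array left out. The 2 lower became 1 with only those arrays, and lay between 1 and 3. In wild-type tumors against wild-type normal colon the count lower lay between 0 and 1. In deficient against wild-type normal colon, 1 was lower with array weights (Edem1).

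In the interaction, the 1 lower became 0 with array weights, 0 with median scaling and 0 with cyclic loess, and lay between 0 and 1 with 1 array left out. A replicate block by the number in the labels also gave 0 there (Dnajb9 −1.40, limma adjusted p = 0.0528), and changed no other count of members. Same-numbered arrays deviated together at correlations between −0.03 and 0.16 over probes, and 3 of the 6 pairs of groups were over 0.1. Since not every pair was, and no label ties the numbers to an animal or a batch, they were not taken to pair the samples, though a shared factor is not shown to be absent. Fitting only the arrays compared could not be done for the interaction, which needs all 4 groups. No member's difference reversed sign while called.

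Over all probes, the calls in deficient against wild-type normal colon were 292, against 641 with array weights, 624 with only those arrays, 193 without a filter and 144 with probes detected on all 8 arrays. Between the tumors they were 2461, against 1441 with weights and 765 with only those arrays, and in the interaction 521, against 297 without a filter and 329 with probes detected on all 8 arrays. The lowest counts with 1 array left out were 809 of 2581 in deficient tumors against deficient normal colon, 38 in normal colon and 23 in the interaction, each without deficient normal replicate 2, and 1116 between the tumors, without deficient tumor replicate 1. Of calls in deficient tumors against deficient normal colon, 44.9% were higher, against 55.8% with the deposited values, which moved the median of all genes there to 0.13. Median scaling moved that of wild-type tumors to −0.14 and the deposited values to 0.11.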
